A study of Mus musculus with 2 samples.

Results

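The genes described are 8 members of the ADAMTS and ADAMTS-like family, secreted proteins with thrombospondin repeats of which all but Adamtsl2 encode metalloproteases, taken by symbol from the 31053 genes of both libraries. They are Adamts1, Adamts2, Adamts4, Adamts5, Adamts9, Adamts10, Adamts12 and Adamtsl2, and all 8 were present in both gene tables. The other 18 ADAMTS and ADAMTS-like genes of the mouse were read only for comparison. The non-cardiomyocyte cells came from hearts of male wild-type C57BL6/J mice, taken at day 20 after transverse aortic constriction (TAC), which narrows the aorta and puts a pressure load on the left ventricle, or on day 20 after sham surgery. Hearts were digested with collagenases and a protease, cardiomyocytes were settled out by gravity, and DAPI-negative cells were sorted and run on 1 droplet lane per group with a 3' kit. There was 1 library per group and the labels do not give the number of hearts behind it, so no difference has a replicate check, and none was tested. Surgery and library cannot be told apart.

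ADAMTS proteases are made as inactive precursors, lose a propeptide in the secretory path and act on the extracellular matrix close to the cell. The hyalectanases among them cut versican and aggrecan, the procollagen proteinases trim the amino-terminal propeptides of fibrillar collagens, and another branch binds fibrillin microfibrils. ADAMTS-like proteins share the ancillary domains but have no protease domain. In the heart, fibroblasts are the main makers of the matrix these proteins act on.

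After filters on genes, UMIs (unique molecular identifiers, 1 per counted RNA molecule) and mitochondrial share, 7854 TAC cells and 7894 sham cells were kept, with a median of 11158 UMIs per cell in the TAC library and 4881.5 in the sham library. The libraries shared 15 cell barcodes, 13 of them among kept cells. Clusters named by marker genes gave 5407 TAC and 6071 sham fibroblast-like cells, 903 TAC and 1077 sham macrophage-like cells, 601 TAC and 157 sham endothelial-like cells, and 322 TAC and 72 sham lymphatic endothelial-like cells. There were also 71 TAC and 58 sham endocardial-like cells and 74 TAC and 42 sham pericyte-like cells. All 8 fibroblast markers, among them Pdgfra, Tcf21 and Col1a1, were detected in the fibroblast-like cells of both libraries. Different clusters held most of the fibroblast-like cells of the TAC library and of the sham library: clusters led by Col8a1, Sfrp1 and Comp were nearly all TAC cells, and clusters led by Smoc2, Myoc and Inmt nearly all sham cells. Levels are UMIs summed over a class and library, per 1e6 UMIs of that sum (CPM). Intervals are exact 95% intervals that cover counting error only.

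In fibroblast-like cells the 8 members did not move together. Adamtsl2, Adamts2 and Adamts4 were at least 2-fold higher in TAC, Adamts1 and Adamts5 were at least 2-fold lower, and Adamts10 and Adamts12 were within 2-fold. That is 3 of the 7 members with at least 10 CPM higher, against 3.34% of 8815 genes at that level, and 2 of 7 lower, against 2.63% of genes. Adamts9 was under 10 CPM in both libraries. The median log2 ratio TAC over sham was 0.10 over those 7 members and -0.06 over all genes at that level.

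**Figure D1:**
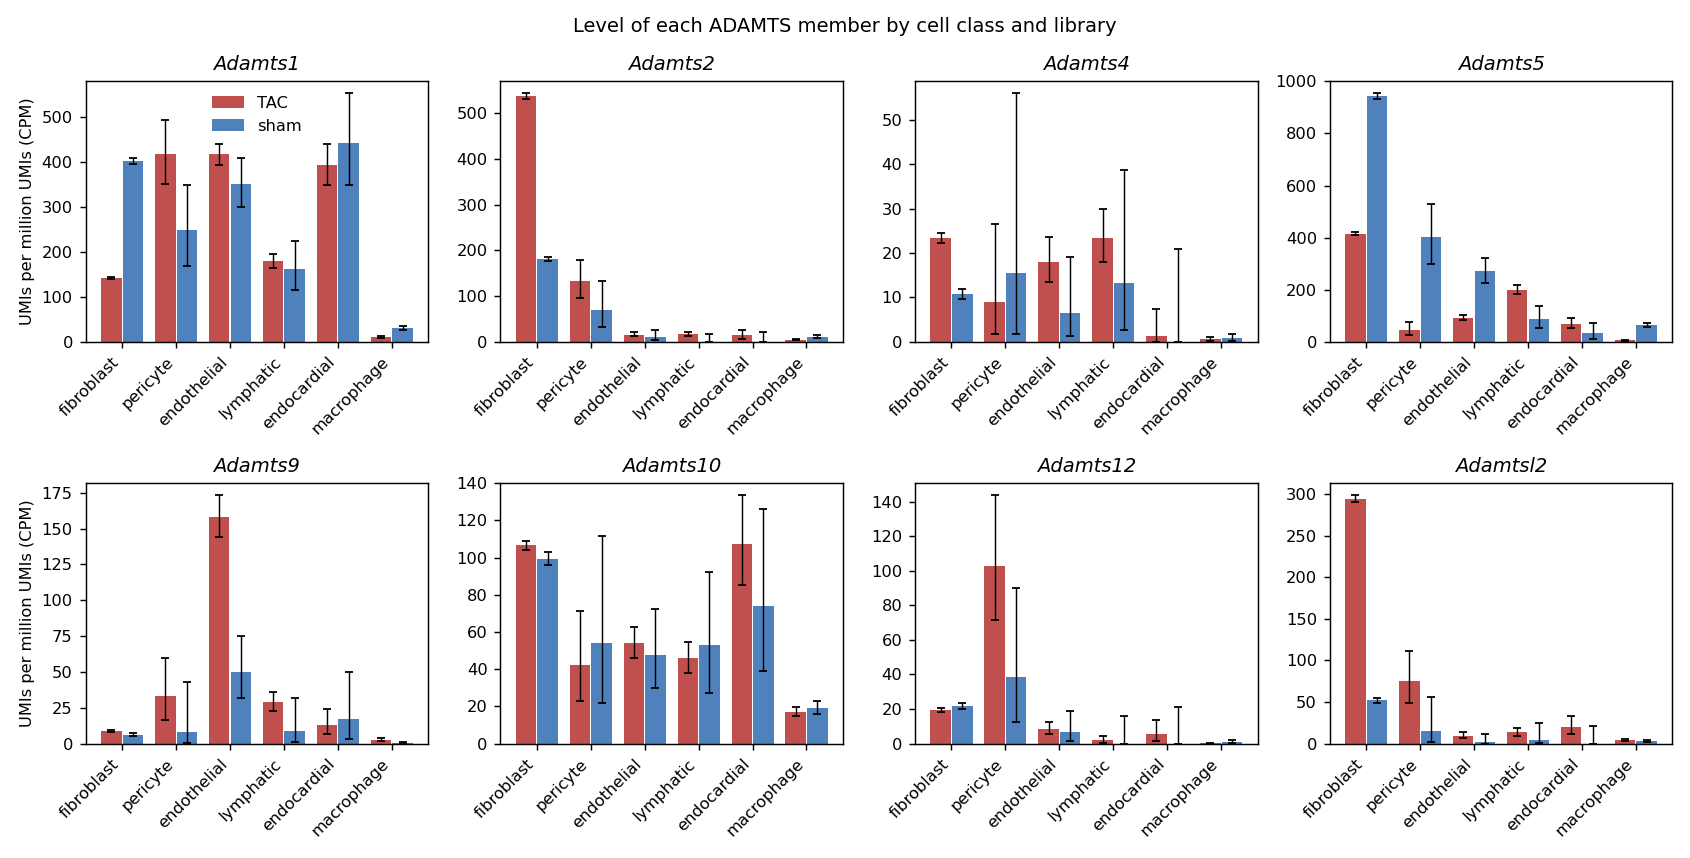
Level of each member in CPM (vertical axis, from 0) by cell class (horizontal axis) in the TAC library (red) and the sham library (blue), with exact Poisson 95% intervals for counting error. Adamts2 and Adamtsl2 stand highest in fibroblast-like cells and higher in TAC, Adamts5 stands highest in fibroblast-like cells and lower in TAC, and Adamts9 stands highest in endothelial-like cells. The sham pericyte-like class held 42 cells.

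The promoters of 5 of the 8 members were found in the RefSeq table for GRCm38.p6, each 250 bases before to 50 after the gene's start. Those of Adamts1, the fibroblast member with the larger deficit in TAC, and of Adamts2 and Adamtsl2, the ones with the larger excesses, are shown so that the differently moving genes can be read side by side. Capitals mark matches to 2 motifs: TATAAA, and in Adamtsl2 also the NF-kB motif, in the searched form a run of GGGA and of CC with 4 free bases between. They lie at chr16:85803064-85803363 (minus strand), chr11:50601835-50602134 (plus strand) and chr2:27079129-27079428 (plus strand).
Adamts1: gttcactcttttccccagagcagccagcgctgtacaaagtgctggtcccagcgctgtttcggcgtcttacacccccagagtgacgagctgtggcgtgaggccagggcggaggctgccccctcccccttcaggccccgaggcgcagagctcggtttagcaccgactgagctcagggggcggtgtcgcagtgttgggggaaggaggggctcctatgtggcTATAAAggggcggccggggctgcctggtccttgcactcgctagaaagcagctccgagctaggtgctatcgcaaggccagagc
Adamts2: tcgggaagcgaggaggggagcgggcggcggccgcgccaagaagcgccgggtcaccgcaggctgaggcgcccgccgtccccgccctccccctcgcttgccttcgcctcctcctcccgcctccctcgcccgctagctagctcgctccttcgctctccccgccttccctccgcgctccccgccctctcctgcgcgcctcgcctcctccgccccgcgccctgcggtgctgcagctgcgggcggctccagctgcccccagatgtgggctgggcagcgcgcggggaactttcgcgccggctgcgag
Adamtsl2: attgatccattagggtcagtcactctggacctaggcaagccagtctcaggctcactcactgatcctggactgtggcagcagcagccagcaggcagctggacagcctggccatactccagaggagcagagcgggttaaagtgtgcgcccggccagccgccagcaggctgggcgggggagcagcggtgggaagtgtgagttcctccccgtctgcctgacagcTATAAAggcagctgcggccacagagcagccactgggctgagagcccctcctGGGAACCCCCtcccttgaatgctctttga

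The TATAAA match began at base -32 from the start in Adamts1 and at base -30 in Adamtsl2, genes that moved in opposite directions in TAC fibroblast-like cells. TATAAA stands in 13.6% of the 32851 promoters of the table on either strand. The NF-kB motif, at base 21 of Adamtsl2, stands in 20.7%. No match was found in these 5 windows to AP-1 (TGANTCA, 7.81% of promoters), CRE (TGACGTCA, 1.79%), a SMAD element (CAGACA, 21.0%), a TEAD element (GGAATG, 14.7%) or CArG (1.63%); both strands were searched, the 3 matches found do not overlap, and an absent match says only that these letters are not in the window. The promoters of Adamts9 and Adamts12 held none of the motifs. The GC content was 77.3% in Adamts2, 64.7% in Adamts1 and 62.3% in Adamtsl2, against 53.8% over all promoters.

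Adamts2 encodes the proteinase that removes the amino-terminal propeptide of procollagens I, II and III. Its gene spans chr11:50602084-50807573 (mm10, plus strand). Fibroblast-like cells had 537 CPM of Adamts2 (interval 532 to 543, 35540 UMIs) in TAC, against 181 CPM (177 to 186, 5638 UMIs) in sham, a ratio of 2.96 (2.88 to 3.05). Fibroblast-like cells held 97.9% of the Adamts2 UMIs of the TAC library and 96.4% of those of the sham library. Pericyte-like cells were next, with 133 CPM in TAC and 69.6 CPM in sham. Every other class of at least 50 cells was at 18.5 CPM or less in either library. In TAC endothelial-like cells Adamts2 stood at 2.99% of the fibroblast level, where the 8 fibroblast markers stood at 2.59% to 6.48%, and in TAC lymphatic endothelial-like cells at 3.08%, where the markers stood at 1.94% to 5.94%. In TAC pericyte-like cells it stood at 24.8% of the fibroblast level, where the markers stood at 3.30% to 67.3% with a median of 5.72%. In sham pericyte-like cells it stood at 38.4%, where the markers stood at 23.4% to 49.6% with a median of 37.7%. In no class of at least 50 cells outside the fibroblast-like cells did Adamts2 stand above the range of the 8 markers. In TAC pericyte-like cells it stood above their median, and carried RNA was not told apart from expression there.

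Of the 6 procollagen chains listed, the substrates and partners of ADAMTS2, 5 had at least 10 CPM in fibroblast-like cells. Of these, 4 were at least 2-fold higher in TAC too, against 3.34% of 8815 genes. None was at least 2-fold lower, against 2.63%. Col1a1 had 3228 CPM in TAC and 938 CPM in sham, a ratio of 3.44 (3.40 to 3.49), and Col5a2, Col1a2 and Col5a1 had ratios of 2.42, 2.33 and 2.04. Col3a1, at a ratio of 1.99 (1.98 to 2.01), was just under the threshold. The median log2 ratio of the 5 chains was 1.22, against -0.06 over all genes.

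Adamtsl2, whose product has no protease domain and binds fibrillin and latent TGF-beta binding proteins, had the highest ratio among the members. Its gene lies at chr2:27079379-27108981 (mm10, plus strand). Fibroblast-like cells had 295 CPM (290 to 299, 19485 UMIs) in TAC, against 51.9 CPM (49.4 to 54.5, 1613 UMIs) in sham, a ratio of 5.68 (5.40 to 5.98). Pericyte-like cells had 75.7 CPM from 25 UMIs in TAC and 15.5 CPM from 2 UMIs in sham. Endothelial-like cells had 9.71 CPM in TAC and 2.17 CPM in sham, at 3.30% of the fibroblast level in TAC and 4.17% in sham, within the marker range in both libraries.

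The fibrillin microfibril list, the matrix to which ADAMTSL2 and ADAMTS10 bind, had 4 of 8 genes at least 2-fold higher in TAC fibroblast-like cells. The share over 8815 genes was 3.34%. None of the 8 was at least 2-fold lower, against 2.63%. Ltbp2, a latent TGF-beta binding protein family member, had 132 CPM in TAC and 8.75 CPM in sham, a ratio of 15.0 (13.3 to 17.0). Fbn2, a fibrillin, had 34.3 CPM in TAC and 9.33 CPM in sham. Mfap5 and Ltbp3 had ratios of 2.38 and 2.11, while Fbn1 had 1.86 and Ltbp1 0.84. Adamts10, whose human counterpart is mutated in a syndrome shared with fibrillin-1, did not go with them. It had 107 CPM (104 to 109) in TAC and 99.2 CPM (95.8 to 103) in sham fibroblast-like cells, a ratio of 1.07 (1.03 to 1.12). Its gene lies at chr17:33524204-33553782 (mm10, plus strand).

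Adamts10 had the most even spread over classes. In TAC, endocardial-like cells had 107 CPM (85.4 to 134), level with fibroblast-like cells, followed by endothelial-like cells at 53.9 CPM, lymphatic endothelial-like cells at 45.9 CPM and pericyte-like cells at 42.4 CPM, 3 classes whose intervals overlap. In sham, the order was fibroblast-like cells at 99.2 CPM, endocardial-like cells at 73.7 CPM (39.3 to 126), then pericyte-like, lymphatic and endothelial-like cells at 54.2, 52.8 and 47.6 CPM, again overlapping. Macrophage-like cells had 17.1 CPM in TAC and 19.0 CPM in sham, at 16.1% of the fibroblast level in TAC and 19.2% in sham, above the 8 fibroblast markers there, which reached 1.49% in TAC and 6.97% in sham at most. Adamts10 was the only member above 10% of its highest level elsewhere in macrophage-like cells.

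Adamts1, Adamts4, Adamts5 and Adamts9 encode proteases that cut versican. Adamts1 and Adamts5 are neighbours on chromosome 16, both on the minus strand, at chr16:85793827-85803113 and chr16:85856173-85901828 (mm10), with 53059 bases between them and 0 protein-coding genes in the gap. Both were lower in TAC fibroblast-like cells.

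Adamts5, a main aggrecanase of mouse cartilage, had 415 CPM (410 to 420, 27452 UMIs) in TAC and 942 CPM (932 to 953, 29299 UMIs) in sham fibroblast-like cells, a ratio of 0.44 (0.433 to 0.448). Adamts1, an aggrecanase and versicanase also known to restrain vessel growth, had 142 CPM (139 to 145, 9417 UMIs) in TAC and 402 CPM (395 to 409, 12503 UMIs) in sham, a ratio of 0.354 (0.345 to 0.364). Adamts4, the related aggrecanase, went the other way, with 23.4 CPM (22.2 to 24.6, 1545 UMIs) in TAC and 10.7 CPM (9.62 to 11.96, 334 UMIs) in sham, a ratio of 2.17 (1.93 to 2.45). With every cell thinned to one depth its log2 ratio was 0.91, under 2-fold, against 1.05. The hyalectanases held members in both directions within the same cell class. Outside fibroblasts, Adamts4 had 23.4 CPM (17.9 to 29.9) in TAC lymphatic endothelial-like cells, level with fibroblast-like cells, and 13.2 CPM from 3 UMIs in sham. The Adamts4 gene lies at chr1:171250421-171260637 (mm10, plus strand). Adamts2 overlaps noncoding genes on the opposite strand, and how counting used strand is not given in the sources used here.

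Outside fibroblasts, Adamts1 was within 2-fold between the libraries in each vascular class. Endothelial-like cells had 417 CPM (394 to 440) in TAC and 351 CPM (299 to 409) in sham, a ratio of 1.19 (1.01 to 1.41). Lymphatic endothelial-like cells had 179 CPM in TAC and 163 CPM in sham, a ratio of 1.10 (0.786 to 1.58), and endocardial-like cells had 393 CPM (349 to 440) in TAC and 442 CPM (350 to 552) in sham. In TAC, pericyte-like, endothelial-like and endocardial-like cells had the highest Adamts1 levels, with overlapping intervals, and lymphatic and fibroblast-like cells stood below them. In sham, endocardial-like, fibroblast-like and endothelial-like cells overlapped at the top. Fibroblast-like cells held 78.5% of the Adamts1 UMIs of the TAC library and 94.6% of those of the sham library.

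Adamts5 was highest in fibroblast-like cells in both libraries. In TAC, lymphatic endothelial-like cells came next, and endothelial-like cells at 93.1 CPM, endocardial-like cells at 69.0 CPM and pericyte-like cells at 45.4 CPM followed, each overlapping its neighbour. In lymphatic endothelial-like cells it was higher in TAC, with 199 CPM (183 to 217, 529 UMIs), against 88.0 CPM (53.7 to 136, 20 UMIs) in sham, a ratio of 2.26 (1.45 to 3.74). It stood there at 48.0% of the fibroblast level in TAC and 9.34% in sham. The fibroblast markers lay lower, at 1.94% to 5.94% in TAC and 1.88% to 5.12% in sham. The sham Adamts5 level was under 10% of that in fibroblast-like cells, a limit below which free RNA was not told apart from expression. With called doublets kept, the level was 204 CPM in TAC and 166 CPM in sham. The log2 ratio was then 0.30, against 1.17. In the lymphatic class erythroid markers summed to 2980 CPM in TAC and 154 CPM in sham, and macrophage markers to 465 CPM in TAC and 1355 CPM in sham, and their part in the differences of this class was not tested.

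In endothelial-like cells the Adamts5 level turned on a small cluster. The class as a whole had 93.1 CPM in TAC and 271 CPM in sham. Its larger cluster, led by Fabp4 and Rbp7 (586 TAC and 108 sham cells), had 80.3 CPM in TAC and 79.5 CPM in sham. Its smaller cluster, led by Igfbp5, Ctla2a and Nts (15 TAC and 49 sham cells), had 363 CPM in TAC and 476 CPM in sham. The summed fibroblast markers were 1026 CPM in TAC and 2398 CPM in sham in the larger cluster, and 2637 CPM in TAC and 4555 CPM in sham in the smaller one. At the finer clustering resolution of 2.0, 14 TAC and 49 sham cells of the smaller cluster were named endocardial-like. The direction of Adamts5 in endothelial-like cells depended on which clusters were counted.

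Adamts9, a versican protease found on the cell surface, was the one member with its highest level in endothelial-like cells. They had 158 CPM (144 to 173, 473 UMIs) in TAC, against 49.8 CPM (31.6 to 74.7, 23 UMIs) in sham, a ratio of 3.18 (2.09 to 5.07). In the larger cluster alone the levels were 166 CPM in TAC and 79.5 CPM in sham, from 19 sham UMIs. With called doublets kept they were 169 CPM in TAC and 84.2 CPM in sham, close to 2-fold, a log2 ratio of 0.996 with 1 CPM added to each. Fibroblast-like cells had 8.54 CPM in TAC and 6.30 CPM in sham, and lymphatic endothelial-like cells 29.0 CPM in TAC and 8.80 CPM, from 2 UMIs, in sham. Endothelial-like cells held 38.0% of the Adamts9 UMIs of the TAC library and 10.0% of those of the sham library. They made up 7.65% of the kept TAC cells and 1.99% of the kept sham cells, so these shares also carry the class sizes. Fibroblast-like cells held 45.4% of the Adamts9 UMIs in TAC and 85.6% in sham. Haemoglobin and other erythroid markers summed to 6592 CPM in TAC and 121 CPM in sham endothelial-like cells, and their part in the Adamts9 difference was not tested. Adamts9 (chr6:92772699-92943492, mm10, minus strand) overlaps genes on the opposite strand.

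Over the endothelial-like class, 2 of the 6 members with at least 10 CPM, Adamts9 and Adamts4, were at least 2-fold higher in TAC, against 7.33% of 9404 genes, and 1, Adamts5, was at least 2-fold lower, against 10.1%. Adamts4 had 18.1 CPM from 54 UMIs in TAC and 6.50 CPM from 3 UMIs in sham, and its ratio of 2.78 had an interval of 0.903 to 13.9. In lymphatic endothelial-like cells 3 of 7 members, Adamts5, Adamts9 and Adamtsl2, were at least 2-fold higher, against 8.93% of 9229 genes, and none was at least 2-fold lower, against 9.62%. Adamtsl2 rested on 36 TAC UMIs and 1 sham UMI. Adamts2 had 44 UMIs, 16.6 CPM, in TAC and 0 in sham lymphatic endothelial-like cells, where the exact interval for 0 counts reaches 16.2 CPM.

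**Figure D2:**
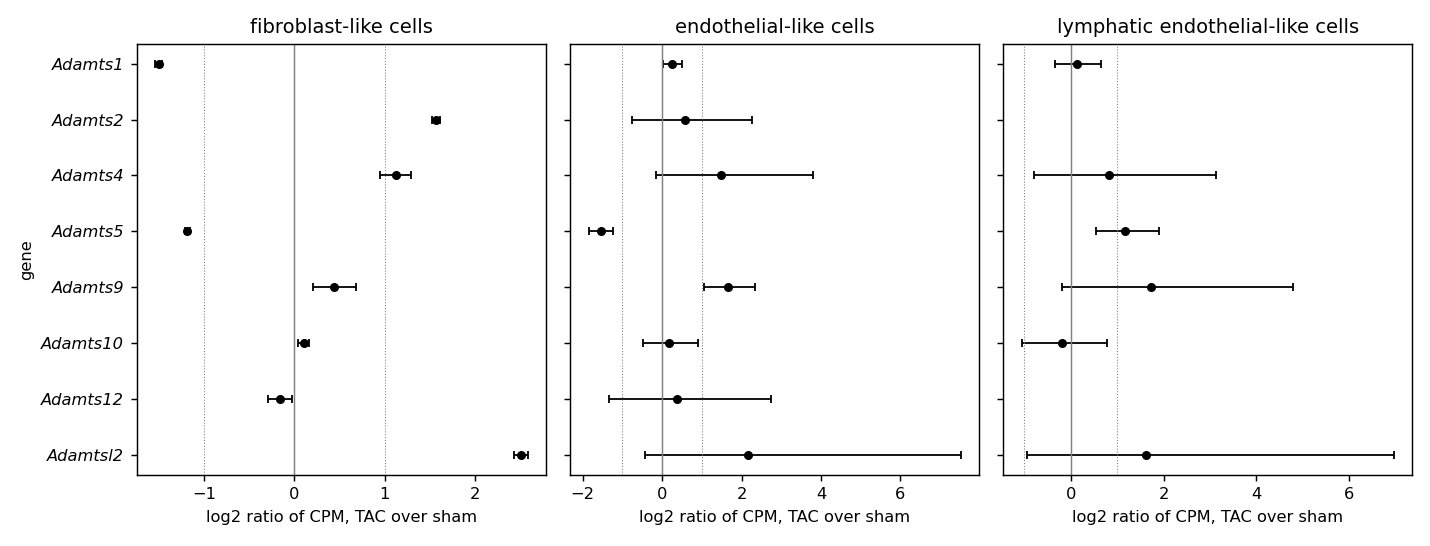
The log2 ratio of CPM, TAC over sham (horizontal axis), of each member (vertical axis) in 3 classes, with exact conditional 95% intervals for counting error and dotted lines at 2-fold either way. The fibroblast ratios of Adamts1 and Adamts5 lie left of the lower line and those of Adamts2 and Adamtsl2 right of the upper line, while the intervals are far wider in both endothelial classes. Members with 0 UMIs in one library have no point.

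Adamts12, a protease known to cut cartilage oligomeric matrix protein, was highest in pericyte-like cells. They had 103 CPM (71.3 to 144, 34 UMIs) in TAC, against 38.7 CPM (12.6 to 90.3, 5 UMIs) in 42 sham cells. Fibroblast-like cells had 19.4 CPM (18.4 to 20.5) in TAC and 21.7 CPM (20.1 to 23.4) in sham, a ratio of 0.895 (0.814 to 0.983). Every other class of at least 50 cells was at 8.37 CPM or less in either library. Pericyte-like cells held the 8 fibroblast markers at a median of 5.72% of the fibroblast level in TAC and 37.7% in sham. Their Adamts5 level was 45.4 CPM in TAC and 402 CPM in sham, and the sham level stood at 42.7% of the fibroblast level, within the marker range of 23.4% to 49.6%. The gene lies at chr15:11064790-11349231 (mm10, plus strand).

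Macrophage-like cells served as the measure of carried RNA. The 8 fibroblast markers stood there at a median of 1.22% of the fibroblast level in TAC and 5.84% in sham. Adamts2 stood at 0.915% in TAC and 6.16% in sham, Adamts5 at 1.38% in TAC and 6.87% in sham, and Adamtsl2 at 1.42% in TAC and 5.46% in sham, each within the range of the markers. Adamts1 stood above it, at 7.60% in TAC, where the markers reached 1.49%, and at 7.78% in sham, where they reached 6.97%. In TAC macrophage-like cells 3 of the 4 members with at least 10 CPM were at least 2-fold lower, against 3.79% of 8434 genes, and none was at least 2-fold higher, against 3.63%. All 3, Adamts1, Adamts2 and Adamts5, were under 10% of their level in another class, a limit below which free RNA was not told apart from expression.

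The differences in fibroblast-like cells were seen across cells and not only in sums. To set libraries of unlike depth side by side, every cell was thinned to 3800 UMIs, which left 5181 TAC and 4907 sham fibroblast-like cells and left out 226 TAC and 1164 sham cells of lower depth. At that depth 80.8% of TAC cells (79.7 to 81.8) and 47.5% of sham cells (46.1 to 48.9) had a UMI of Adamts2. For Adamtsl2 the shares were 56.1% in TAC and 13.98% in sham, for Adamts5 64.1% in TAC and 88.2% in sham, and for Adamts1 26.3% in TAC and 51.2% in sham. Before thinning, Adamts2 was found in 95.3% of TAC and 54.7% of sham cells, Adamtsl2 in 79.6% of TAC and 17.6% of sham cells, Adamts5 in 85.1% of TAC and 89.7% of sham cells, and Adamts1 in 44.96% of TAC and 55.3% of sham cells. In macrophage-like cells thinned alike, the shares were 1.87% in TAC and 3.13% in sham for Adamts2, 1.76% in TAC and 0.817% in sham for Adamtsl2, 2.11% in TAC and 8.86% in sham for Adamts5, and 1.64% in TAC and 5.04% in sham for Adamts1.

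**Figure D3:**
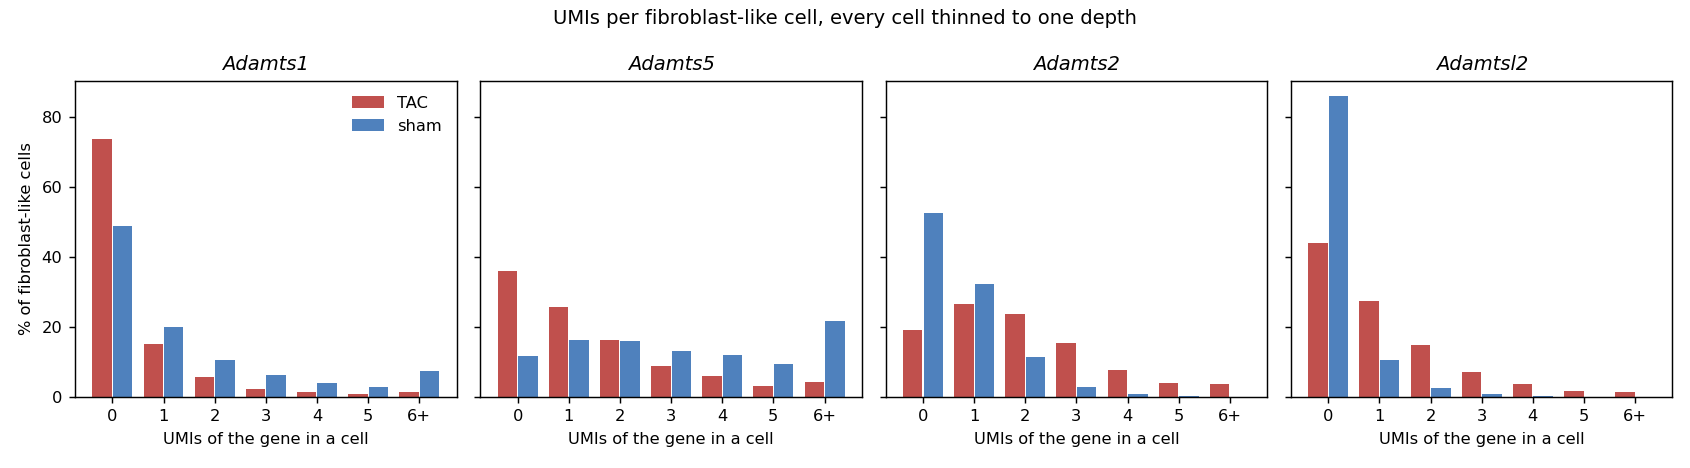
Share of fibroblast-like cells (vertical axis, percent) by the number of UMIs of a gene in the cell (horizontal axis) after thinning each cell to one depth, for 5181 TAC cells (red) and 4907 sham cells (blue). For Adamts5, 4.27% of TAC cells held 6 or more UMIs against 21.6% of sham cells, and for Adamts2 the cells at 0 UMIs were 19.2% in TAC and 52.5% in sham.

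The distributions of UMIs per cell of Adamts1, Adamts2, Adamts5 and Adamtsl2 shifted as a whole. That of Adamts12 differed little, with 93.0% of TAC and 92.6% of sham cells at 0 UMIs. Cells with 6 or more UMIs of Adamts5 were 4.27% in TAC and 21.6% in sham. Cells with 6 or more UMIs of Adamts2 were 3.57% in TAC and 0 of 4907 in sham, where a limit set at 3 cells is a share of 0.0611%. Adamts4 was found in 7.01% of TAC and 3.34% of sham thinned cells, and Adamts9 in 2.74% of TAC and 2.06% of sham cells. Pairs of the 4 abundant members, Adamts1, Adamts2, Adamts5 and Adamtsl2, were seen together in 0.920 to 1.06 times the cells given by the product of their shares. Adamts2 and Adamtsl2 shared 2376 TAC cells, against 2345 from the product, and Adamts1 and Adamts5 shared 894 TAC cells, against 873, and 2221 sham cells, against 2214. Some pairs with a rarer member lay farther off, among them Adamts1 and Adamts4 with 115 TAC cells, against 95.5, Adamts4 and Adamts12 with 34 TAC cells, against 25.4, and Adamts4 and Adamtsl2 with 14 sham cells, against 22.9. Others lay near the product, among them Adamts2 and Adamts4 with 296 TAC cells, against 293, and Adamts1 and Adamts9 with 38 TAC cells, against 37.4. Of all thinned cells, 34.0% of TAC and 30.6% of sham cells had 3 members, and 1.89% of TAC and 1.69% of sham cells had none.

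Fibroblast states were gated on the thinned cells by genes outside the family, and a cell can be in more than 1 state. Cells with none of Postn, Comp or Thbs4, genes of activated and matrix-making fibroblasts, were 1390 in TAC (26.8%) and 4664 in sham (95.05%). Cells with Postn but not Comp or Thbs4 were 1795 in TAC and 91 in sham, and cells with Comp or Thbs4 were 977 in TAC and 28 in sham, too few there to give a level.

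Within the TAC library, Adamts1 and Adamts5 were lowest in cells with Comp or Thbs4. Adamts1 had 85.3 CPM there and 156 CPM in the other TAC fibroblast-like cells, a ratio of 0.547 (0.513 to 0.583). Adamts5 had 259 CPM there and 452 CPM in the others, a ratio of 0.573 (0.552 to 0.594). Adamts2 went the other way, with 646 CPM there and 511 CPM in the others, a ratio of 1.26 (1.23 to 1.30). Adamtsl2, with 274 CPM there and 300 CPM in the others, differed little. No member was 2-fold higher or lower in cells with Comp or Thbs4 than in the other TAC fibroblast-like cells, where 1.52% of 8638 genes were higher and 0.695% lower.

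In cells without Postn, Comp or Thbs4 the 4 abundant members differed between TAC and sham in the same directions as over all fibroblast-like cells. There Adamts2 had 439 CPM in TAC and 181 CPM in sham, a ratio of 2.43 (2.34 to 2.52), and Adamtsl2 had 291 CPM in TAC and 49.6 CPM in sham, a ratio of 5.87 (5.52 to 6.25). Adamts1 had 198 CPM in TAC and 414 CPM in sham, a ratio of 0.477 (0.458 to 0.496), and Adamts5 had 533 CPM in TAC and 959 CPM in sham, a ratio of 0.555 (0.542 to 0.569). So 3 of 7 members were at least 2-fold higher, against 2.67% of 8755 genes, and 1, Adamts1, at least 2-fold lower, against 2.14%. In cells with Postn but not Comp or Thbs4, Adamts1 had 125 CPM in TAC and 167 CPM in sham, a ratio of 0.752 (0.617 to 0.925), and Adamts5 had 405 CPM in TAC and 783 CPM in sham, a ratio of 0.517 (0.472 to 0.568). Adamts2 and Adamtsl2 had ratios of 2.16 and 3.61 in these cells. Thus 2 of 7 members were at least 2-fold higher there, against 5.41% of 8883 genes, and none was at least 2-fold lower, against 4.59%. The ratios of Adamts1 and Adamts5 were closer to 1 in both sets than over all fibroblast-like cells, and the difference between those ratios was not tested.

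**Figure D4:**
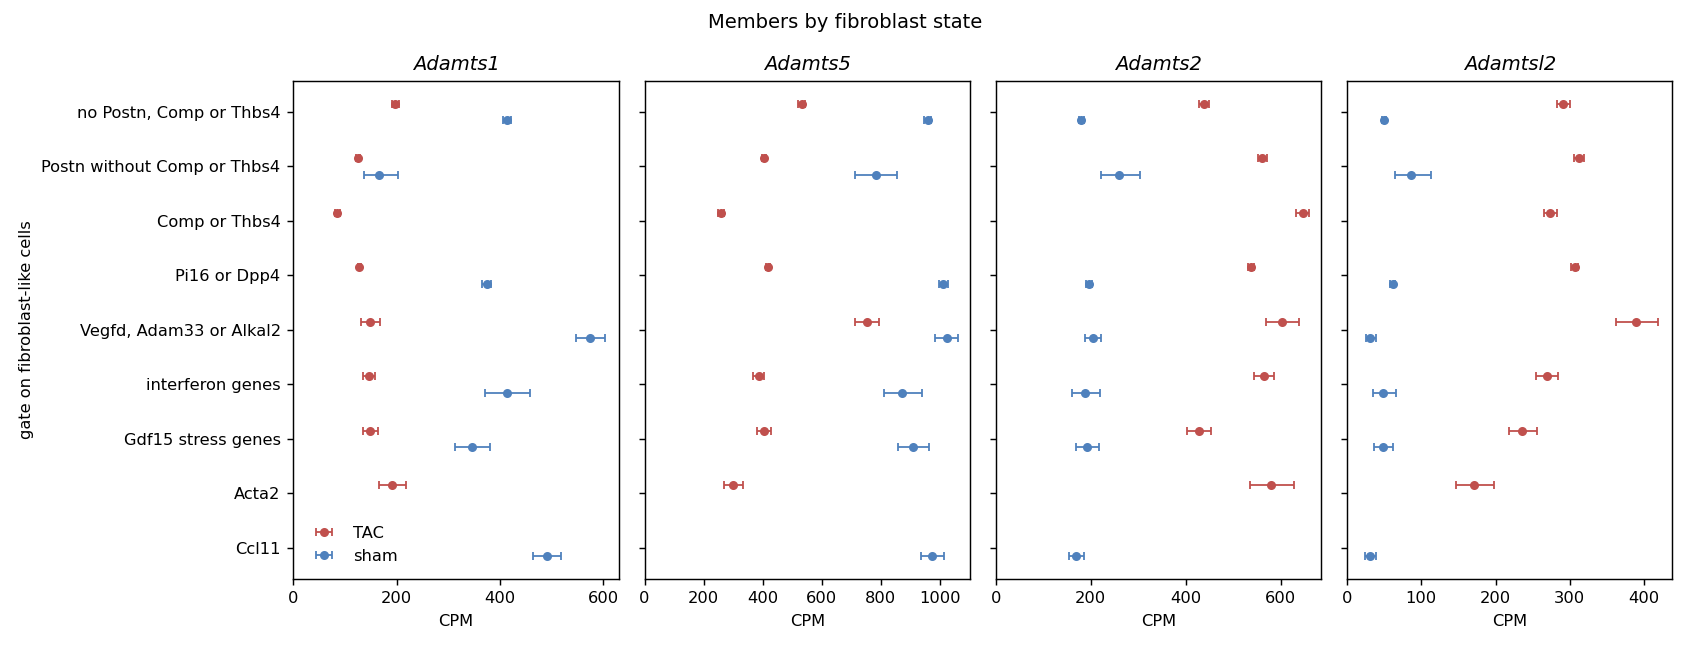
Level of 4 members in CPM (horizontal axes, from 0) in gated sets of fibroblast-like cells (vertical axis) in the TAC library (red) and the sham library (blue), with exact Poisson 95% intervals for counting error. Only sets of at least 50 cells in a library are drawn, so the Acta2 and the Comp or Thbs4 sets have TAC points only and the Ccl11 set a sham point only. In each set drawn for both libraries Adamts2 and Adamtsl2 are higher in TAC, and Adamts1 and Adamts5 lower.

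Cells with Vegfd, Adam33 or Alkal2 (150 in TAC, 492 in sham) stood apart for Adamts5 within TAC. They had 754 CPM of Adamts5, against 405 CPM in the other TAC fibroblast-like cells, a ratio of 1.86 (1.76 to 1.97). In sham the same gate gave 1023 CPM and the other cells 939 CPM, a ratio of 1.09 (1.05 to 1.13). With the gate set 1 UMI lower, the TAC level was 561 CPM. Adamtsl2 had 389 CPM in TAC and 31.6 CPM in sham cells of this gate, a ratio of 12.3 (9.84 to 15.6). In cells with Acta2, a contractile gene of myofibroblasts, 81 TAC cells had 171 CPM of Adamtsl2 and 300.3 CPM of Adamts5, against 297 and 416 CPM in the other TAC fibroblast-like cells, and with the gate 1 UMI lower Adamtsl2 stood at 266 CPM.

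Cells with interferon-induced genes differed little from their library for the 4 abundant members. In TAC they had 146 CPM of Adamts1 and 565 CPM of Adamts2, and the other TAC cells 142 and 535 CPM. Cells with Gdf15 and other stress genes had 428 CPM of Adamts2 in TAC, against 542 CPM in the other TAC cells. Sham cells with Ccl11 (476 cells) had 491 CPM of Adamts1, against 396 CPM in the other sham fibroblast-like cells. Cells with Pi16 or Dpp4, genes of the adventitial and universal fibroblast state, were 3750 in TAC and 2925 in sham and had 306 CPM of Adamtsl2 in TAC and 61.4 CPM in sham.

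Immediate early genes are known to be switched on by tissue digestion, and their level differed between the libraries. Of the 10 listed, 6 were at least 2-fold lower in TAC fibroblast-like cells, against 2.63% of 8815 genes. None was at least 2-fold higher, against 3.34%. Among the lower genes were Atf3 with a ratio of 0.265, Fos with 0.367, Jun with 0.443 and Zfp36 with 0.447. The median thinned cell held 41 UMIs of the 10 genes in TAC and 82 in sham. Cells were therefore split into 3 bins of like size over both libraries together, at 39 and 75 UMIs. The low bin held 47.6% of TAC and 18.5% of sham cells, and the high bin 11.8% of TAC and 55.1% of sham cells.

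Adamts1 stood higher in bins with more early-gene UMIs in both libraries. In TAC it had 86.6, 170 and 277 CPM in the low, middle and high bins, and in sham 190, 357 and 498 CPM. Within the same bin the ratio TAC over sham was 0.456, 0.475 and 0.555, nearer to 1 than the 0.354 over all fibroblast-like cells. Adamts1 was 1 of 7 members at least 2-fold higher in the high bin than in the low bin in TAC, against 0.981% of 8662 genes. In sham 2 of 7, Adamts1 and Adamts4, were, against 1.04% of 8722. No member was at least 2-fold lower in the high bin, against 0.485% of genes in TAC and 0.413% in sham. Adamts4 had 31.3 CPM in the high bin and 18.3 CPM in the low bin in TAC, and 14.3 and 4.74 CPM in sham. Within bins its TAC level was higher than its sham level at each, with ratios of 3.87, 3.26 and 2.19.

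The other abundant members were nearly level across the bins. Between the high and the low bin, Adamts5 had a ratio of 0.938 in TAC and 0.843 in sham, Adamts2 1.04 in TAC and 0.975 in sham, and Adamtsl2 0.954 in TAC and 0.848 in sham. Within bins, Adamts5 was at 0.398, 0.414 and 0.443 of its sham level, Adamts2 at 2.83, 2.88 and 3.01, and Adamtsl2 at 4.87, 5.77 and 5.48. Thus 3 of 7 members were at least 2-fold higher in TAC in each bin, against 3.45%, 3.24% and 3.29% of genes in the low, middle and high bins. Adamts1 and Adamts5 were at least 2-fold lower in the low and middle bins, against 2.86% and 2.58% of genes, and Adamts5 alone in the high bin, against 2.49%. The part of the early genes in the Adamts1 difference was not tested beyond these bins.

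**Figure D5:**
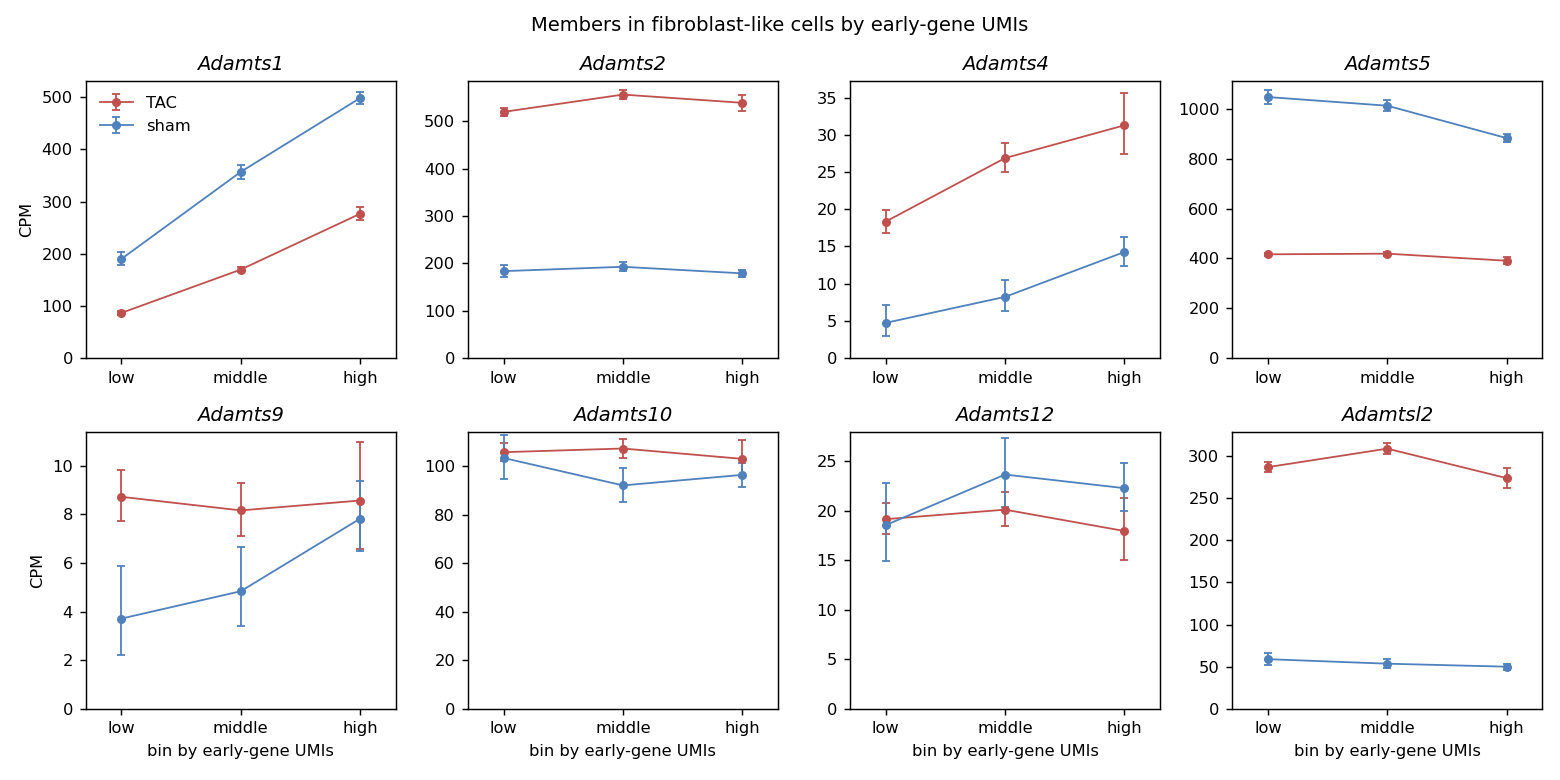
Level of each member in CPM (vertical axes, from 0) in fibroblast-like cells split into 3 bins by UMIs of 10 early genes (horizontal axis), in the TAC library (red) and the sham library (blue), with exact Poisson 95% intervals for counting error. Adamts1 climbs with the early genes in both libraries, with TAC below sham at each bin, while Adamts2, Adamts5 and Adamtsl2 are nearly flat and stay apart between the libraries.

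Among the TIMP metalloproteinase inhibitors and clearance genes listed, Timp1 had 301 CPM in TAC and 29.2 CPM in sham fibroblast-like cells, a ratio of 10.3 (9.64 to 11.03). Whether it acts on the members was not tested. Timp3, the inhibitor of the TIMP family best known to act on ADAMTS4 and ADAMTS5, had 369 CPM in TAC and 622 CPM in sham, a ratio of 0.593 (0.582 to 0.604). Lrp1, the receptor that takes up several of these proteases, had a ratio of 1.58, and Timp2 0.883. Of the 7 genes listed, 4 had at least 10 CPM. Of these, 1 was at least 2-fold higher, against 3.34% of 8815 genes, and none at least 2-fold lower, against 2.63%. Of the 6 genes for propeptide cleavage and glycosylation of the repeats, 1 was at least 2-fold lower, against 2.63% of genes. None was at least 2-fold higher, against 3.34%. The lower gene was Pcsk6, a proprotein convertase, with 292 CPM in TAC and 770.1 CPM in sham, a ratio of 0.379. Furin, which removes ADAMTS propeptides, had a ratio of 1.40, and Pofut2 and B3glct, which add fucose and glucose to the repeats, had 1.17 and 1.11.

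Among the 12 proteoglycan and hyaluronan genes listed, 6 had at least 10 CPM in fibroblast-like cells. Of these, 2 were at least 2-fold higher in TAC, against 3.34% of 8815 genes, and 1 at least 2-fold lower, against 2.63%. Fmod, fibromodulin, had 36.7 CPM in TAC and 1.83 CPM in sham, a ratio of 20.0 (15.4 to 26.5), and Bgn, biglycan, had a ratio of 2.72. Vcan, the versican that the hyalectanases cut, had 284 CPM in TAC and 182 CPM in sham, a ratio of 1.56. Cd44, the hyaluronan receptor, had a ratio of 1.78. Has2, a hyaluronan synthase, had 9.48 CPM in TAC and 20.8 CPM in sham, a ratio of 0.456.

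Of the other 12 ADAMTS proteases, only Adamts15 reached 10 CPM in fibroblast-like cells, with 8.59 CPM in TAC and 22.5 CPM in sham, a ratio of 0.381 (0.341 to 0.427). Of the other 6 ADAMTS-like proteins, Adamtsl3 had 21.8 CPM in TAC and 57.5 CPM in sham, a ratio of 0.379 (0.353 to 0.407), opposite to Adamtsl2, and Adamtsl4 and Adamtsl5 had ratios of 1.35 and 0.887. Adamts8 stood at 26.1 CPM in TAC and 36.8 CPM in sham endothelial-like cells, Adamtsl1 at 27.1 CPM in TAC and 26.0 CPM in sham, and Papln at 16.4 CPM in TAC and 2.17 CPM, from 1 UMI, in sham. Adamtsl4 and Thsd4 had 4.69 and 1.00 CPM in TAC and 10.8 CPM each, from 5 UMIs each, in sham endothelial-like cells. In lymphatic endothelial-like cells Adamtsl1 had 271 CPM in TAC and 176 CPM in sham, a ratio of 1.54 (1.12 to 2.18), Thsd4 had 37.3 CPM in TAC and 4.40 CPM, from 1 UMI, in sham, and Adamtsl4 had 26.4 CPM in TAC and 17.6 CPM in sham.

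Genes whose levels ran most like each member's over 14 class and library sums were found among 6931 genes by Pearson's r of log2(CPM + 1). The 14 points share 2 libraries, so these values are a description. Tnfaip6, Col5a1 and Col8a1 ran most like Adamts2, with r of 0.943, 0.931 and 0.926. Chpf, Rasl11b and Apod ran most like Adamtsl2 (0.957, 0.952 and 0.937), Mex3c, Lamc1 and Mn1 most like Adamts5 (0.920, 0.917 and 0.905), and Fam92a, Pja2 and Parva most like Adamts1 (0.971, 0.970 and 0.970). Meox1, Unc5b and Tgfb3 ran most like Adamts4 (0.936, 0.9296 and 0.928), and Ltbp1, P3h4 and Ghr most like Adamts10 (0.970, 0.970 and 0.955). Ift122, Dbndd2 and Plcb4 ran most like Adamts9 (0.959, 0.943 and 0.942), and Smarca1, Foxs1 and Tbx2 most like Adamts12 (0.970, 0.958 and 0.958).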

How the data were processed

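The authors deposited whole-number UMI counts of each gene in each barcode, written by Cell Ranger 3.1.0, per the file headers. Build mm10 and Seurat are named in the submitters' processing notes. What Seurat did, the counting strand and the annotation counted on are not given in the sources. Coordinates came from GENCODE vM21, which matched 30934 of 31053 gene IDs. Left out were barcodes under 500 genes, under 1000 UMIs or over 15% mitochondrial, 901 in TAC and 462 in sham. Scrublet (Scanpy 1.11.5) then removed 146 TAC and 70 sham doublets, 1.83% and 0.879%. The TAC library held 96003109 UMIs in 8901 barcodes and the sham library 42490230 in 8426. Both libraries were clustered together (Leiden, resolution 1.0, igraph 0.11.9) without the members among the clustering genes. Clusters were named from 16 marker classes. A name needed a score of 0.6 and 3 markers seen, and its limits on second classes were settled after the data were seen. The authors' cell names were not used here, and differences from other work can come from that.

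Log2 ratios used CPM + 1. Classes of at least 50 cells were described and of at least 70 cells in each library compared, among genes of at least 10 CPM in either library. A sum of 0 was set at 3 counts for calls. Ratios carry exact conditional, sums exact Poisson and shares exact Clopper-Pearson 95% intervals. States needed 2 UMIs of a gate gene, or 3 for interferon genes. The ratio and interval steps were tested on simulated data. Named were the 8 members, relatives of at least 10 CPM, up to 4 genes per list by size of ratio, and the 3 genes most like each member; further list genes (Col3a1, Fbn1, Ltbp1, Vcan) were named after their values were seen. The members and lists were chosen with earlier results of these data known.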

Additional observations from a re-analysis of the deposited data

Results flagged for a closer look

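The ratio TAC over sham of Adamts1 was 0.354 in fibroblast-like cells and 1.19 in endothelial-like cells, on opposite sides of 1. The interval of the 1.19, 1.01 to 1.41 for counting error only, began close to 1. Within the early-gene bins the fibroblast ratio was nearer to 1, at 0.456, 0.475 and 0.555. That of Adamts5 was 0.44 in fibroblast-like cells and 2.26 in lymphatic endothelial-like cells, again on opposite sides. The 2.26 rested on 20 sham UMIs, at 9.34% of the fibroblast level, where free RNA was not told apart from expression. With called doublets kept, the log2 ratio of Adamts5 in lymphatic endothelial-like cells was 0.30, against 1.17. Adamts5 in endothelial-like cells, at 0.344, also stood opposite to the 2.26 in lymphatic endothelial-like cells, but its value in the larger endothelial-like cluster was 80.3 CPM in TAC and 79.5 CPM in sham. Each class had 1 library per group, so none of these differences between classes was tested.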

How the results depend on the processing

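In fibroblast-like cells, under the 11 alternatives run, the 8 members kept their direction and none moved over 1.5-fold; 2 to 3 members were at least 2-fold higher and 2 lower. Adamts4, with a log2 ratio of 1.05, stood under 2-fold at 0.91 with cells thinned to one depth and at 0.69 with a pseudocount of 10 CPM. In endothelial-like cells the log2 ratio of Adamts5, -1.53, turned to 0.014 with the larger cluster only, an alternative chosen after seeing the data, to 0.014 at resolution 2.0, where the same cells made the class and all but 1 cell of the smaller cluster were named endocardial-like, and to 0.73 with doublets kept; in each of the 3, 0 members were at least 2-fold lower, against 1. Members at least 2-fold higher there numbered 1 at a minimum of 50 CPM and 4 with libraries clustered separately, against 2. In lymphatic endothelial-like cells 1 member was at least 2-fold higher at a minimum of 50 CPM, against 3. Apart from the cluster counted, the cause was not tested. Adamts9 in endothelial-like cells, at a log2 ratio of 1.65, was higher in TAC in all 10 alternatives, at 0.996 to 1.76. It moved over 1.5-fold in 3 of them. The value was 1.05 with the larger cluster only and at resolution 2.0, and 0.996, close to 2-fold, with doublets kept. Thinned cells and the stricter cell filter gave no value in either endothelial class, nor did a gate on each cell in the lymphatic class, as fewer than 70 cells were left in a library. No paired analysis was possible because there was 1 library per group. Sham sums of 1 to 3 UMIs limit the ratios of Adamts4 and Adamtsl2 in both endothelial classes and of Adamts9 in the lymphatic class.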
